A study of Mus musculus with 16 samples.

Results

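The Ikzf3, Rara and Ccr7 block is a stretch of 860 kb on mouse chromosome 11 (mm9, 98.2 to 99.06 Mb), taken from a list of open chromatin regions of regulatory T cells (Treg cells, the T cells that hold other immune cells in check). Its members are the regions of that list that overlap the stretch, 142 of 75363, or 0.188% of the list. The block was chosen by the number of regions seen there, so its number of regions and their density are given as a description and carry no test. The label names 3 genes, and the positions used for them are those of the selection rule, given to the nearest 10 kb on mm9: Ikzf3 at 98.33 to 98.41 Mb, Rara at 98.79 to 98.84 Mb and Ccr7 at 99.01 Mb.

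Accessibility was mapped by ATAC-seq, in which a transposase inserts sequencing adapters into DNA that is free of nucleosomes. CD4+CD25+ Treg cells of C57BL/6 mice came from epididymal visceral adipose tissue (2 samples), injured hindlimb skeletal muscle (2 samples) and colonic lamina propria (4 samples, of which 2 are titled Nrp1p and 2 Nrp1n), each set against Treg cells of the spleen of the same mouse (8 samples). The spleen samples are titled by the tissue they go with: Spl_wVAT (2), Spl_wMus (2), Spl_wCol_Nrp1p (2) and Spl_wCol_Nrp1n (2). No transgene or other treatment is named in the labels of these 16 samples from 8 mice. The deposited list gives positions for all samples together and no value for any one of them, so tissue and spleen could not be compared at these genes, the labelled cell type could not be checked against marker loci, depth is unknown, and no error between mice can be given.

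Ikzf3 encodes Aiolos, a zinc finger transcription factor of the Ikaros family that acts in lymphocytes. Rara encodes retinoic acid receptor alpha, a nuclear receptor that binds retinoic acid, the vitamin A product known to favour the induction of Treg cells in the gut. Ccr7 encodes the receptor for the chemokines CCL19 and CCL21, which draw lymphocytes into the T cell zones of lymph nodes and spleen, and it is known as a mark of resting, recirculating T cells. Clusters of open regions at a gene commonly hold its promoter and nearby enhancers, but a list of positions does not say which region serves which gene.

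The regions were not laid out evenly, and each of the 3 genes lay in a dense part. With a margin of 10 kb on both sides, which allows for the rounding of the positions, the Ikzf3 stretch held 29 regions in 100 kb, the Rara stretch 20 in 70 kb and the Ccr7 stretch 6 in 20 kb. Per 100 kb this came to 29.0 regions at Ikzf3, 28.6 at Rara and 30.0 at Ccr7. The parts between and beside the genes were sparser, with 12.8 per 100 kb between Ikzf3 and Rara (46 regions), 12.7 between Rara and Ccr7 (19 regions), 11.7 below Ikzf3 (14 regions) and 20 beyond Ccr7 (8 regions in 40 kb), which lay between the other parts and the genes. The 3 gene stretches were thus alike in density at this margin, despite their different lengths. The likeness depends on the margin: without it, Ikzf3 held 25 regions per 100 kb and Rara 32. Within 5 kb of the position of Ccr7 lay 5 regions.

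**Figure D1:**
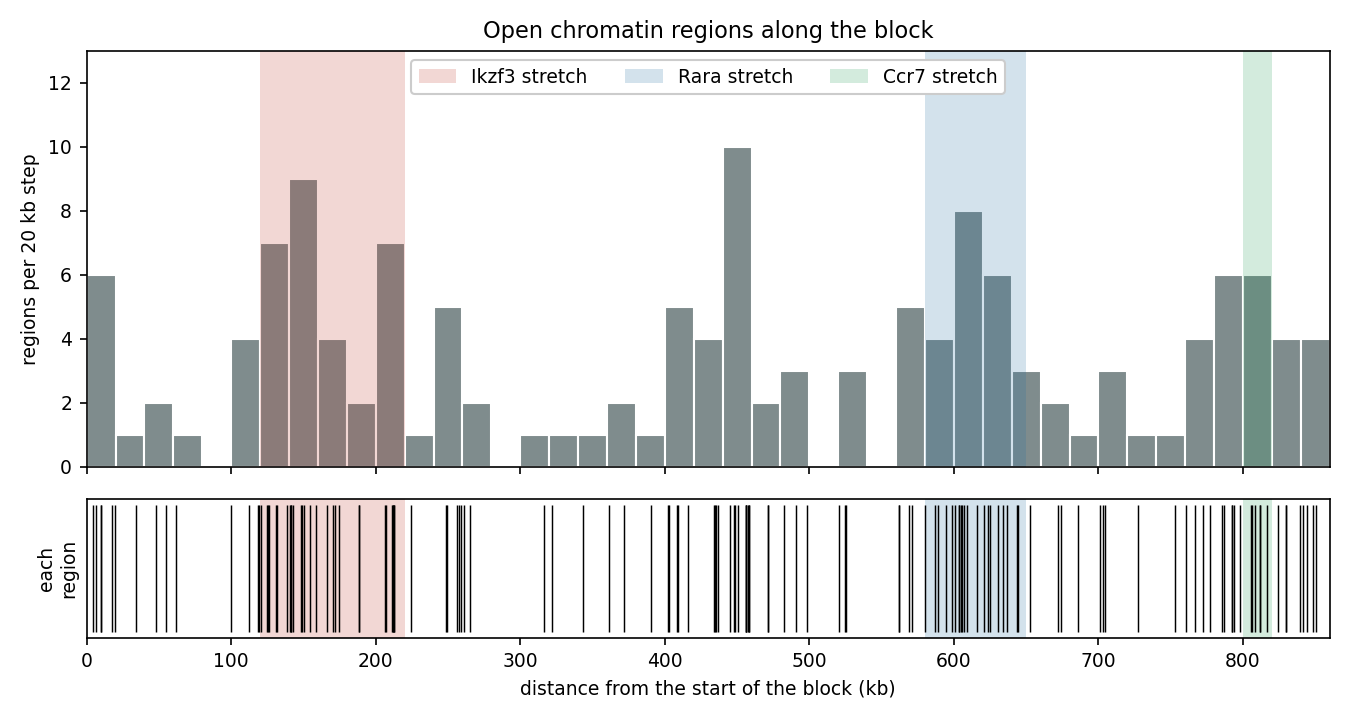
Number of regions in each 20 kb step (vertical axis, top; a region is counted where its centre lies) and each single region as a line (bottom), by distance in kb from the start of the block (horizontal axis). Shading marks the stretches of Ikzf3 (29 regions), Rara (20 regions) and Ccr7 (6 regions); the highest step, with 10 regions, lies between Ikzf3 and Rara.

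In 43 steps of 20 kb the number of regions ran from 0 to 10, with a median of 3 and a mean of 3.30 ± 2.56 (SD over steps, which are not replicates). Of these steps, 4, or 9.30%, held none, against 65.1% of 6043 steps on the rest of chromosome 11. The block was chosen for its number of regions, so fewer empty steps and more full ones follow from that choice. Of the 5 steps with 7 or more regions, 3 lay in the Ikzf3 stretch, with 7, 9 and 7 regions, and 1 in the Rara stretch, with 8. The step with the most regions lay at neither gene: it held 10 regions at 98640001 to 98660000, between Ikzf3 and Rara. On the rest of chromosome 11, 1.32% of the steps held 7 or more and 0.0993% held 10 or more.

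The steps below Ikzf3 held 6 regions at the start of the block and then 1, 2, 1, 0 and 4. Across Ikzf3 they held 7, 9, 4, 2 and 7, with the fewest at 98360001 to 98400000. Between Ikzf3 and Rara a run of 8 steps from 98440001 held 5, 2, 0, 1, 1, 1, 2 and 1 regions, and the 3 steps from 98600001 held 5, 4 and 10. Across Rara they held 4, 8 and 6. The 6 steps after that held 3, 2, 1, 3, 1 and 1, the steps that led up to Ccr7 4 and 6, the Ccr7 step itself 6, and the last steps of the block 4 and 4. Ccr7 was therefore not a peak of its own at this scale but part of a dense end of the block.

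At Ikzf3, with the margin of 10 kb, the regions were tightly packed. The median gap between neighbours was 854 bp in the stretch and 4603.5 bp on the rest of chromosome 11. The block was chosen for its number of regions, and short gaps go with that choice. A neighbour less than 500 bp away was found for 17 of the 29 regions of the stretch (58.6%). This share was 38.8% on the rest of chromosome 11 and 38.7% in the whole list. It was 53.3% in the 860 kb before the block, and 36.8%, 46.5% and 51.0% in the 3 richest windows of 860 kb elsewhere. Without the margin, 9 of 20 regions (45%) had such a neighbour and the median gap was 1896 bp. Much of the packing therefore lay in the margins. The regions covered 6.38% of the stretch. Where regions less than 500 bp apart are joined into one site, the 29 regions made 18 sites, 6 of them with several regions.

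The site with the most regions in the whole block lay near the position given for the upper end of Ikzf3, at 98411263 to 98412748. It held 5 regions within 1486 bp, with widths of 186, 100, 226, 150 and 376 bp and gaps of 122, 93, 218 and 15 bp between them. Together with regions at 98406249 to 98406378 and at 98407229 to 98407431 it formed a cluster of 7 regions in 6.50 kb, of which 21.1% lay in regions. In the other 7 clusters of the block this share was at most 10.8%. Mouse Ikzf3 is read toward lower coordinates, so its upper end is the 5′ end, but the start sites on mm9 were not annotated here and none of these regions is called a promoter.

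The other dense part of Ikzf3 lay toward its lower end. Between 98338592 and 98342852 there were 5 regions, among them the pair of widest regions of the stretch, of 385 bp at 98342468 to 98342852 and of 379 bp at 98338592 to 98338970. A further region, of 367 bp, lay at 98348944 to 98349310. Around the position of the lower end itself, a site of 3 regions spanned 1088 bp (98325026 to 98326113) and a site of 2 regions spanned 604 bp (98331203 to 98331806). In contrast, the only regions between the one that ends at 98374508 and the one that starts at 98406249 were a pair 56 bp apart, at 98388118 to 98388375 and at 98388432 to 98388617, with gaps of 13609 and 17631 bp on their outer sides.

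**Figure D2:**
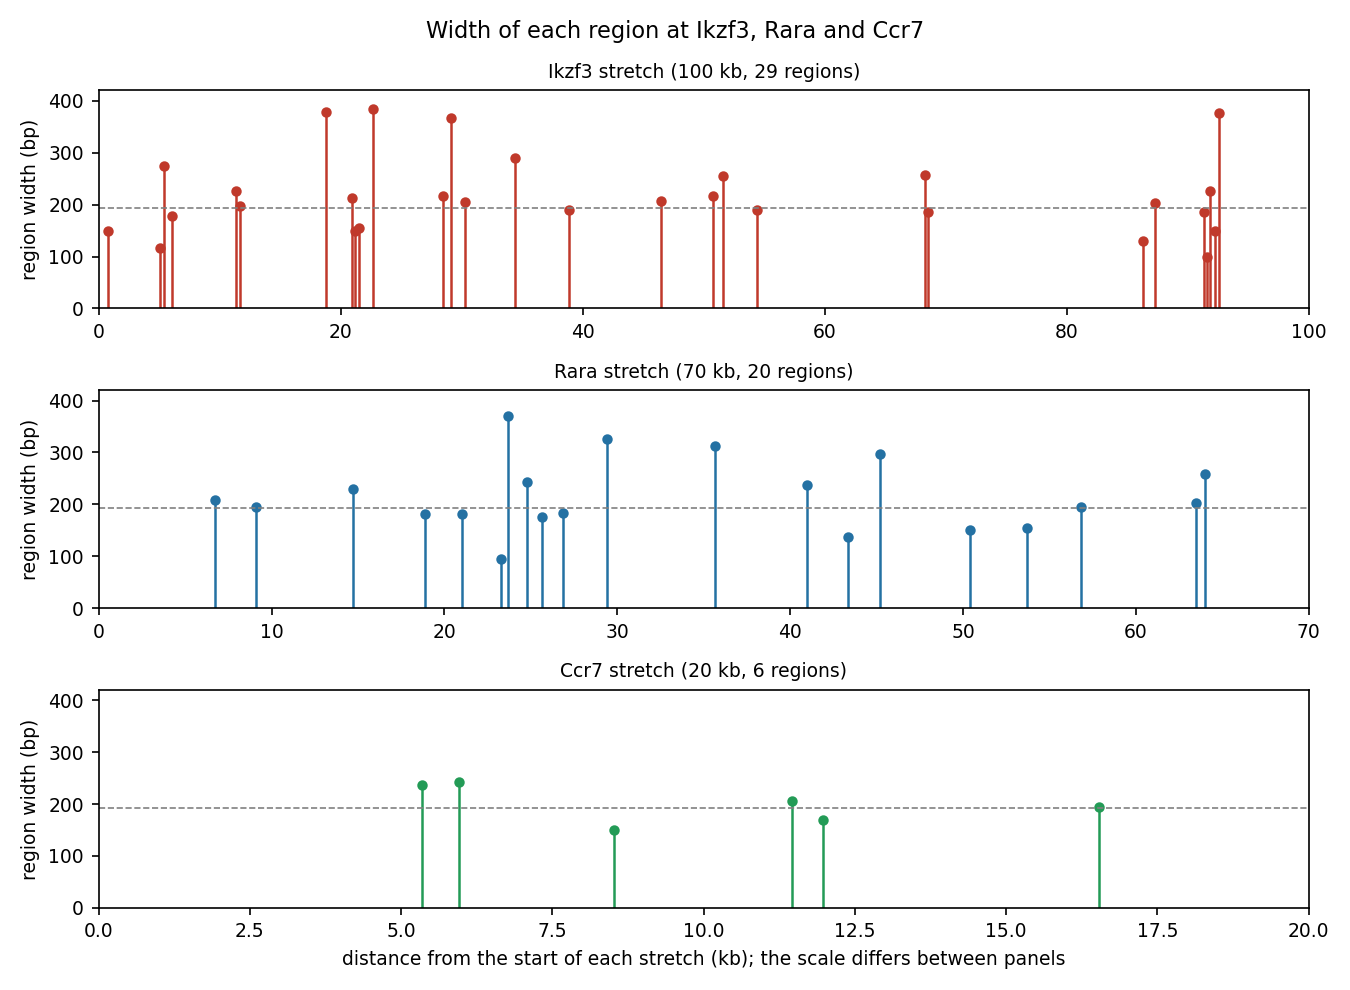
Width in base pairs (vertical axis) of each region in the stretches of Ikzf3 (29 regions), Rara (20 regions) and Ccr7 (6 regions), by distance in kb from the start of the stretch (horizontal axis, different scale in each panel). The dashed line is the median width on the rest of chromosome 11 (193 bp). The Ikzf3 regions, counted with the margins, stand in tight groups, and the Rara regions are spread more evenly.

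At Rara, with the same margin, the regions were as dense as at Ikzf3 but more evenly spread. Only 4 of 20 regions had a neighbour within 500 bp, a lower share than the 38.8% on the rest of the chromosome, the 20 regions made 18 sites, and the median gap was 2168 bp. The longest gap in the stretch was 6467 bp, against 17631 bp at Ikzf3. Without margins the median gaps were closer, 2168 bp at Rara and 1896 bp at Ikzf3. The shares with a neighbour within 500 bp were then 12.5% at Rara and 45% at Ikzf3. Regions covered 6.19% of the stretch. The difference in packing between the genes was not tested, since the regions of 1 list are not replicates.

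The densest part of Rara held 5 regions between 98803232 and 98806953. The first of them was 94 bp wide, and the second, at 98803475 to 98803844, was with 370 bp the widest of the stretch. The next widest were 326 bp (98809217 to 98809542), 312 bp (98815490 to 98815801) and 297 bp (98825023 to 98825319), so that wide regions were spread over much of the gene. A pair of regions of 202 and 259 bp at 98843401 to 98844118 lay just above the position given for its upper end. The cluster around Rara, linked at gaps under 10 kb, held 26 regions over 90.5 kb (98761978 to 98852470) and was the largest of the block by number of regions. It reached 28.0 kb below the position given for Rara, toward Cdc6 and Wipf2, the genes next to Rara on that side.

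Rara is transcribed from several starts. RefSeq promoter sequences on GRCm38.p6 were at hand for 1 of the 3 genes, Rara, with 4 starts, and 3 of them are shown to let its starts be compared in sequence; the other genes of the block were not looked up. The one left out, start 2, lies only 22 bp past start 1. Each is the 250 bases before a start, on the plus strand. Their coordinates are of GRCm38.p6 and must not be read on the scale of the mm9 regions, and which of them lies in an open region was not determined. Capitals mark matches to the searched motifs, on either strand.
Rara start 1 (chr11:98937446-98937695): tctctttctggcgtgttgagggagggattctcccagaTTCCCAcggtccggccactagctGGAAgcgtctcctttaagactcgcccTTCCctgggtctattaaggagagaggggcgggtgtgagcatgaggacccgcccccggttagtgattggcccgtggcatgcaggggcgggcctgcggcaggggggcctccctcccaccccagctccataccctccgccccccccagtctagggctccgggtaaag
Rara start 3 (chr11:98939461-98939710): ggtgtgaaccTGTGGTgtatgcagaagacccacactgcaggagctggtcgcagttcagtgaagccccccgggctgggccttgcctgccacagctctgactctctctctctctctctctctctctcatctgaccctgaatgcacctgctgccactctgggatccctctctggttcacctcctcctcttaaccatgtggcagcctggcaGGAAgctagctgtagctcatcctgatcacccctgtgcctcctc
Rara start 4 (chr11:98964622-98964871): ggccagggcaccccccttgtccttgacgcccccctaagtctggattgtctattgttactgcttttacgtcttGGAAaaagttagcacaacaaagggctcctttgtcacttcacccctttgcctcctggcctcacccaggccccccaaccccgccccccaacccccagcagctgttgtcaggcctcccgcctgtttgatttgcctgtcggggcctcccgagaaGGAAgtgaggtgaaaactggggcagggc

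The sequence before start 1 was the richest in G and C (65.2%) and held 13 CpG dinucleotides, against 58.8% and 2 CpG before start 3 and 59.6% and 6 CpG before start 4. The median over 32851 RefSeq promoters of the same length was 52.4% (quartiles 45.2 and 61.2%). The core letters of ETS factor sites, GGAA, occurred 3 times before start 1, 1 time before start 3 and 2 times before start 4, and 93.4% of all promoters hold at least 1. The letters TGGGAA, used here for the Ikaros family to which Ikzf3 belongs, occurred 1 time before start 1, where they overlap a GGAA match, and are held by 21.6% of all promoters. The RUNX letters TGTGGT occurred 1 time before start 3 (14.0% of promoters). The letters TGANTCA (AP-1, in 6.75% of promoters), GTAAACA (forkhead factors, 3.17%) and TGACCT (the core of retinoic acid and thyroid hormone receptor sites, 14.0%) were not in these windows.

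Ccr7 had the fewest regions of the 3 genes, in the shortest stretch. The 6 regions were a pair of 236 and 243 bp at 99005219 to 99005454 and 99005838 to 99006080, a single region of 150 bp at 99008440 to 99008589, a pair of 206 and 170 bp at 99011362 to 99011567 and 99011884 to 99012053, and a single region of 194 bp at 99016444 to 99016637. Of these, 4 had a neighbour within 500 bp and none was 300 bp or wider. Regions covered 5.99% of the stretch, against 6.38% at Ikzf3 and 6.19% at Rara. The annotated length of Ccr7 is 10.9 kb, against 81.4 kb for Ikzf3 and 47.1 kb for Rara (GRCm38.p6).

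The Ccr7 regions were part of a cluster of 25 regions over 97.9 kb (98953004 to 99050900), the longest of the block. Most of its regions lay outside the Ccr7 stretch, 11 toward Rara and 8 beyond Ccr7. The shortest gap of the block, 7 bp, lay in this cluster, between regions of 138 and 212 bp at 99029392 to 99029529 and 99029537 to 99029748. Nearest to Ccr7 on the side of Rara in the gene table is Tns4, which encodes a protein of cell adhesions.

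The block also holds other genes, whose order was taken from the RefSeq table of GRCm38.p6 without its coordinates. Between Ikzf3 and Rara it lists 25 genes, of which 16 code for proteins. In order these include Zpbp2, a sperm protein, Ormdl3, a regulator of sphingolipid synthesis, Lrrc3c, the gasdermins Gsdma3, Gsdma2 and Gsdma, which belong to a family of pore-forming proteins, Psmd3, a proteasome subunit, and Csf3, the granulocyte colony-stimulating factor. There follow Med24, a Mediator subunit, Thra, a thyroid hormone receptor, Nr1d1, the clock repressor REV-ERB alpha, Msl1, a scaffold of a histone acetyltransferase complex, Casc3, a part of the exon junction complex, Rapgefl1, Wipf2, a regulator of actin, and Cdc6, which licenses DNA replication. Between Rara and Ccr7 the table lists 7 genes, with Gm46294, Gjd3 (a gap junction protein), Top2a (a topoisomerase of dividing cells), Igfbp4 (a binding protein of insulin-like growth factors) and Tns4 coding for proteins. None of these genes was placed on mm9, so no region was assigned to any of them.

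Between Ikzf3 and Rara, open regions stood in separate clusters with long gaps around them. A cluster of 7 regions spanned 17.0 kb (98448493 to 98465539), and the longest gap of the block, 51.0 kb (98465540 to 98516538), followed it. A cluster of 5 regions over 14.4 kb (98601861 to 98616265) held the widest region of the block, 537 bp at 98608474 to 98609010, with a neighbour 126 bp away. The next cluster, of 14 regions over 24.4 kb (98633987 to 98658427), was the densest of those not at a named gene, with 5.73 regions per 10 kb. The cluster at the upper end of Ikzf3 held 10.8, and the cluster of 23 regions (98311855 to 98374508) that covers its lower end 3.67. The long clusters around Rara and Ccr7 held 2.87 and 2.55 per 10 kb, the lowest of all clusters of the block. Near the upper end of the cluster of 14 regions were 6 regions in 2 sites of 744 and 726 bp (98655778 to 98656521 and 98657702 to 98658427). The other long gaps were 38.1 kb below Ikzf3 (98261844 to 98299991) and 36.4 kb below Rara (98725559 to 98761977).

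Linked at gaps under 10 kb, the block had 8 clusters of 5 or more regions. They held 113 of the 142 regions (79.6%) and spanned 38.3% of its length. The cluster not yet named lay at the start of the block, with 6 regions over 15.7 kb (98203983 to 98219723).

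Median region width ran from 185 to 223 bp over the stretches of the block. The median was 199 bp (quartiles 169 and 236 bp) in the block and 193 bp (quartiles 167 and 227 bp) on the rest of chromosome 11. The 95% rank interval of the block's median, 188 to 212 bp, includes 193 bp, although it takes regions as independent draws. By stretch, the medians were 223 bp below Ikzf3, 206 bp at Ikzf3, 188 bp between Ikzf3 and Rara, 198.5 bp at Rara, 206 bp between Rara and Ccr7, 200 bp at Ccr7 and 185 bp beyond Ccr7. All lay between the quartiles of the rest of the chromosome, but those are of single regions and too wide a band to judge medians by. Of the 14 regions below Ikzf3, 3 were 300 bp or wider and 0 were 150 bp or less. Of the 8 beyond Ccr7 these numbers were 0 and 2.

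**Figure D3:**
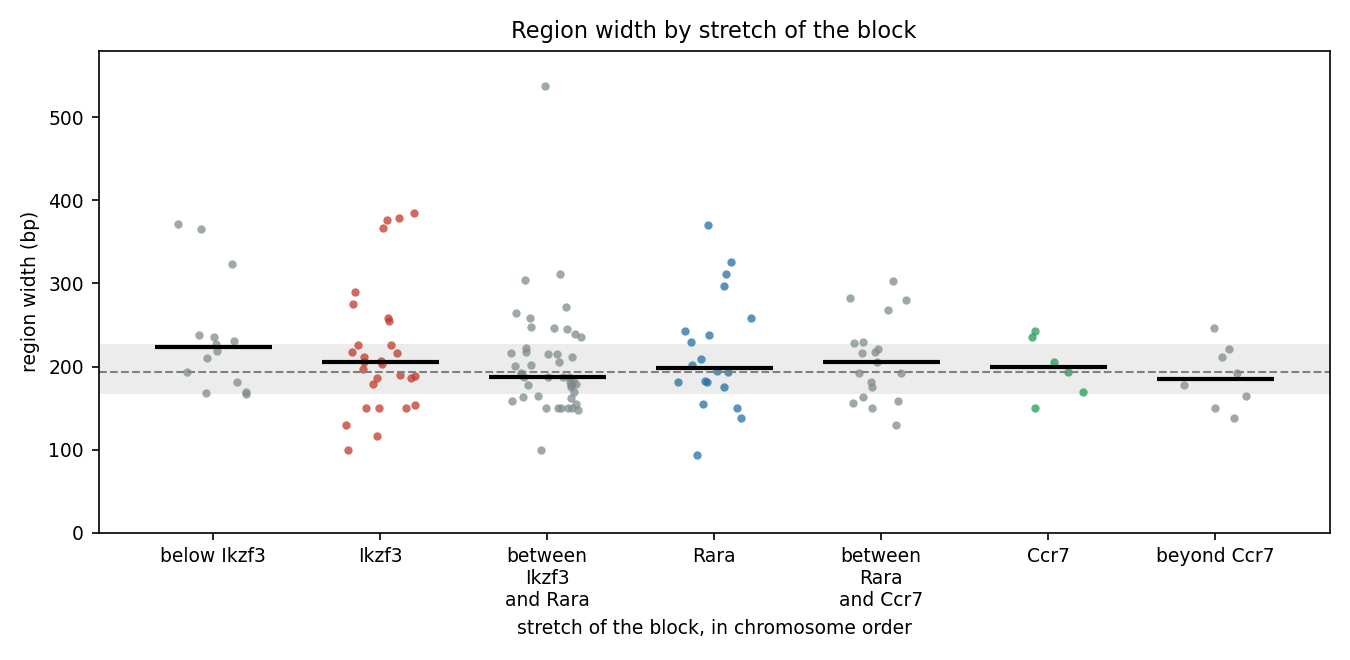
Width in base pairs of each region (points, vertical axis) in the 7 stretches of the block (horizontal axis), with the median of each stretch as a black bar. The dashed line and grey band are the median (193 bp) and quartiles (167 and 227 bp) of single regions on the rest of chromosome 11. All 7 medians lie in this band, which is wide for medians, and the widest region, of 537 bp, lies between Ikzf3 and Rara.

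Wide regions made up a larger share of the block than of the chromosome. Of its regions, 14 (9.86%) were 300 bp or wider, against 6.40% on the rest of chromosome 11. In the 3 richest windows of 860 kb elsewhere, the share was 8.59%, 6.25% and 6.99%, so the richest window came near the block. Of the 14, 4 lay at Ikzf3, 3 at Rara, 3 below Ikzf3, 3 between Ikzf3 and Rara and 1 between Rara and Ccr7. These numbers are small and no test was made of them. The share of regions of 150 bp or less was 14.8% in the block and 15.2% on the rest of the chromosome. Exactly 150 bp was the most frequent width of the block, with 12 regions, as it was in the whole list, with 4196.

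For scale, the block held 16.5 regions per 100 kb, against 4.49 on the rest of chromosome 11, a ratio of 3.68. Regions covered 3.50% of the block and 0.907% of the rest of the chromosome. The density did not carry on past the block at the distal end: the next 860 kb held 22 regions, where the 860 kb before the block held 92. The first region inside the rule's lower border lay 3983 bp from it and the last one outside 42108 bp, and at the upper border the distances were 9100 bp inside and 1046 bp outside.

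Windows as rich as the block were rare on the list. Of 2862 windows of 860 kb set end to end on chromosomes 1 to 19, the median held 16 regions and 1 held at least 142. Their fixed borders can split a dense stretch, whereas the block was placed on one. These windows include the block's own regions. On chromosome 11, where the block lies, the richest of them held 126 and may hold some of those regions. The 3 richest windows elsewhere, found by sliding in steps of 20 kb, held 163 regions (chromosome 10, 80200001 to 81060000), 144 (chromosome 7, 133600001 to 134460000) and 143 (chromosome 10, 79320001 to 80180000). Its longest gap was 51.0 kb, against 29.2, 46.5 and 28.9 kb in these windows, and 4 of its steps of 20 kb were empty, against 0, 2 and 2. In the block 35.9% of regions had a neighbour within 500 bp, against 36.8%, 46.5% and 51.0% in these windows and 38.8% on the rest of chromosome 11. Sites of several regions made up 19.5% of the sites of the block and 21.3% of those on the rest of chromosome 11, so that over the whole block close spacing was near the chromosome's value. None of these differences was tested.

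**Figure D4:**
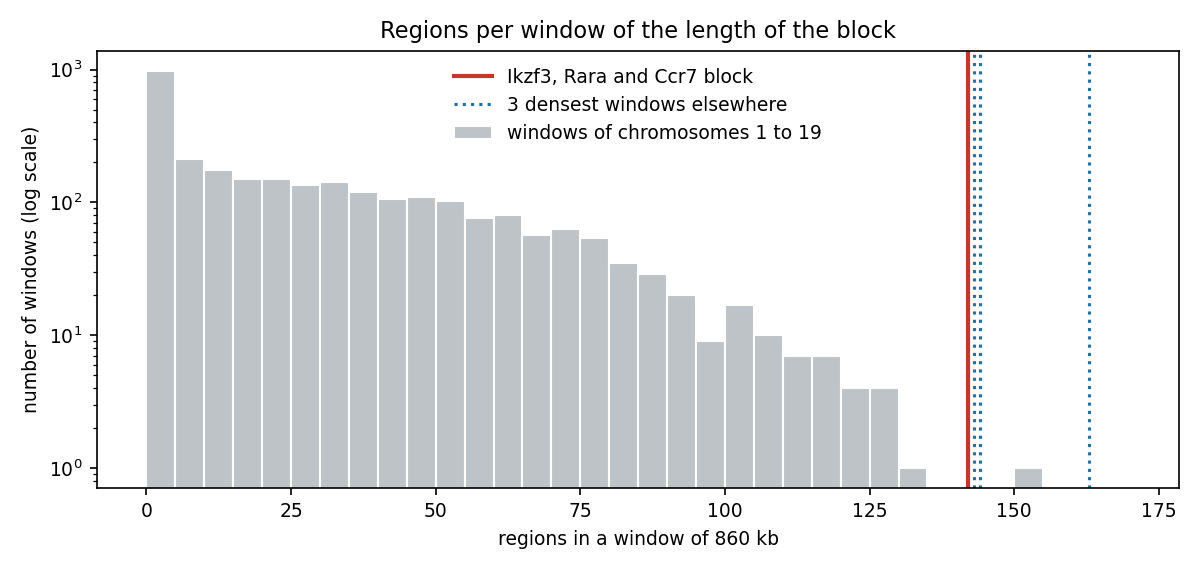
Number of 860 kb windows of chromosomes 1 to 19 (vertical axis, log scale) by the regions they hold (horizontal axis, bins of 5). The windows set end to end include the block's own regions. The red line is the block (142 regions) and the dotted lines are the 3 richest windows elsewhere (143, 144 and 163 regions); the windows set end to end have a median of 16.

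The gene stretches can be set against windows of their own length. Of all windows of 100 kb on chromosomes 1 to 19 outside the block, placed every 10 kb, 0.114% held at least the 29 regions of Ikzf3. For the 70 kb of Rara, 0.293% of windows held at least 20 regions, and for the 20 kb of Ccr7, 1.62% held at least 6. On chromosome 11 alone the shares were 0.191% for Ikzf3, 0.530% for Rara and 2.88% for Ccr7. The order of the genes follows the length of the windows, neighbouring windows overlap, and the genes were chosen with their regions known, so these shares only describe where the genes stand on the list.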

How the data were processed

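The deposited file is 1 list of open chromatin regions for the series, with chromosome, start and end per the file header and no score or count. Tools named in the submitters' processing notes are HOMER 4.6, Picard 1.130, SAMtools 1.3, Bowtie2 2.2.4 and cutadapt 1.8.3, with build mm9; how regions were called and combined over samples is not given in the sources used here. Per the labels' protocols, 10000 sorted cells per library were transposed for 60 min and fragments under 600 bp were selected. Those steps decide which regions are listed, and a listed region may have been open in any number of the tissues.

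Starts were raised by 1 base. Width is the number of bases, and the gap is the number of bases between neighbours. Regions were put in the 20 kb step, or the stretch, that holds their centre. The length of the rest of chromosome 11 is the end of its last region minus the block. Gene order, gene lengths and promoters came from RefSeq tables of GRCm38.p6; no coordinate was converted. The genes, the lists and the rule for named regions (those in the gene stretches, the 5 widest, the 3 longest gaps, the clusters of 5 or more; other regions were chosen after their values were seen) were chosen with earlier results of these data known. Python 3.11.15 with pandas 2.3.3 was used. The layout functions recovered all planted clusters on simulated data with clear-cut spacing, which checks the code and not the clusters reported here. No tissue comparison was run, since no value per sample was at hand.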

Additional observations from a re-analysis of the deposited data

How the results depend on the processing

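No paired analysis was possible because positions alone were deposited in the file used, without values for single samples; no sample could be left out either. Keeping only regions of the list's median width or more left 80 regions in the block, 17 at Ikzf3 and 12 at Rara, which follows from dropping regions. Merging regions less than 500 bp apart left 18 at Ikzf3, as many as at Rara, so the larger number at Ikzf3 rests on tightly spaced regions. Those 18 lay in 100 kb at Ikzf3 but in 70 kb at Rara, and 4 were left in the 20 kb of Ccr7. A margin of 20 kb gave 13 regions at Ccr7, since regions next to it then count. Steps of 10 kb gave 25 empty steps of 86, and steps of 50 kb gave 0 of 17. Against chromosomes 1 to 19 other than 11, the density ratio was 5.69. The other 24 of 32 alternative values stayed within 1.5 times of those reported or, for median width, within a cut taken from the rank interval. That cut is only a yardstick. The difference in median width from the rest of chromosome 11 was 6 bp, and 9 bp for regions over 150 bp. Against the whole list it was 8 bp. Since depth is unknown, an empty step or a long gap shows that nothing was called there, not that the DNA was closed.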
